A study of Homo sapiens with 5 samples.

Results

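The genes described here encode the repressor REST and the LSD1-CoREST complex that it brings to chromatin: REST, the demethylase KDM1A (LSD1), the scaffold paralogs RCOR1, RCOR2 and RCOR3, the accessory subunits HMG20B and PHF21A, and the deacetylases HDAC1 and HDAC2. They were chosen by gene symbol, and all 9 were found once each among the 57905 genes of the expression table. RNA was sequenced from 5 human cell lines with 1 library per line. MCC13, WaGa, MKL-2 and MKL-1 are labelled as Merkel cell carcinoma (MCC), a neuroendocrine cancer of the skin (n = 4), and REH as a pre-B-cell acute lymphoblastic leukemia (n = 1). The labels give every line the genotype WT and name no treatment. All were grown in the same medium, RPMI with 10% fetal bovine serum. Levels are TPM (length-scaled transcript units that share a fixed total per library), so levels of different genes within a line can be set side by side. The files hold no read counts, so the depth behind each value is unknown, and the precision of low values cannot be given. A line and its library cannot be told apart here, since each line was sequenced once. Every p-value therefore concerns differences between lines and not between repeat libraries of a line. The limma values also draw on the variance of other genes, which sets most of the SE where the lines on 1 side hardly differ or are all at or near 0. A gene was tested only if it reached 1 TPM in a line compared. Where 1 side is under 1 TPM, a gene is thus tested only because the other side is high, and a call adds little to the levels.

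REST (RE1-silencing transcription factor) is a zinc-finger protein that binds a DNA element called RE1 and keeps neuronal genes silent outside the nervous system. Its C-terminal part binds CoREST proteins, which carry LSD1 and the deacetylases HDAC1 and HDAC2. LSD1 removes methyl groups from lysine 4 of histone H3, a mark of active promoters and enhancers, and the deacetylases remove acetyl groups. Neurons and many neuroendocrine cells have little REST, while other DNA-binding proteins with a SNAG domain, such as GFI1 and INSM1, can bring in the same LSD1-CoREST enzymes.

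The labelled cell types were checked against marker genes. The 9 Merkel and neuroendocrine markers summed to 4.78 TPM in MCC13, 7558 in WaGa, 4632 in MKL-2, 3990 in MKL-1 and 1.84 in REH, and ATOH1, KRT20, INSM1 and ISL1 were listed at 0 in MCC13. The defining markers of the labelled cell type were thus at or near 0 in MCC13. There, 7 of the 9 passed the test as lower than in the other 3 MCC lines, where 2.47% of all genes tested did. CHGA, among the 7, lost the call in other settings given below. The 7 mesenchymal markers summed to 8703 TPM in MCC13, 19.5 in WaGa, 12.8 in MKL-2, 12.7 in MKL-1 and 1011 in REH. As higher in MCC13, 5 of them passed, where 6.47% of all genes tested did. Of these 5, FN1, COL1A2, PDGFRB and LGALS1 lost the call with 0.1 or 0.01 added to the TPM before taking logs in place of 1. FN1 lost it also with no filter on low values. The 9 B-lineage markers summed to 2.70 TPM in MCC13, 109 in WaGa, 137 in MKL-2, 208 in MKL-1 and 6065 in REH. Of the 6 B-lineage markers tested in MCC13, 2 passed as lower. Markers of T, myeloid and endothelial cells (5 of 6 matched) summed to between 0.713 TPM in REH and 3.04 in MKL-2. Genes at 1 TPM or more numbered between 15949 in MCC13 and 16921 in MKL-2. Mitochondrially encoded genes took between 3.52% and 7.84% of the TPM in the MCC lines and 0.783% in REH. Because MCC13 stands apart, results that rest on it are given below with and without it.

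The RNA of REST separated the lines into a pair with REST RNA and 3 lines at or near 0. REST (ENSG00000084093) had 27.7 TPM in MCC13, 0 in WaGa, 0 in MKL-2, 0.00573 in MKL-1 and 30.8 in REH. MCC13 and REH were thus close to each other, while MKL-1 was near 0 and MKL-2 and WaGa were listed at 0. A listed 0 in such a table can also be a failed estimate, and the files hold no read counts against which to check it. Within MCC13, REST exceeded 59.0% of the genes at 1 TPM or more, and within REH 62.5%. Of the 5258 genes at 25 TPM or more in both MCC13 and REH, 40 were below 1 TPM in each of WaGa, MKL-2 and MKL-1, and 11 were below 0.01 TPM there, REST among them. The values are per gene and do not separate the isoforms of REST, of which a neural splice form is known to encode a truncated protein.

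**Figure D1:**
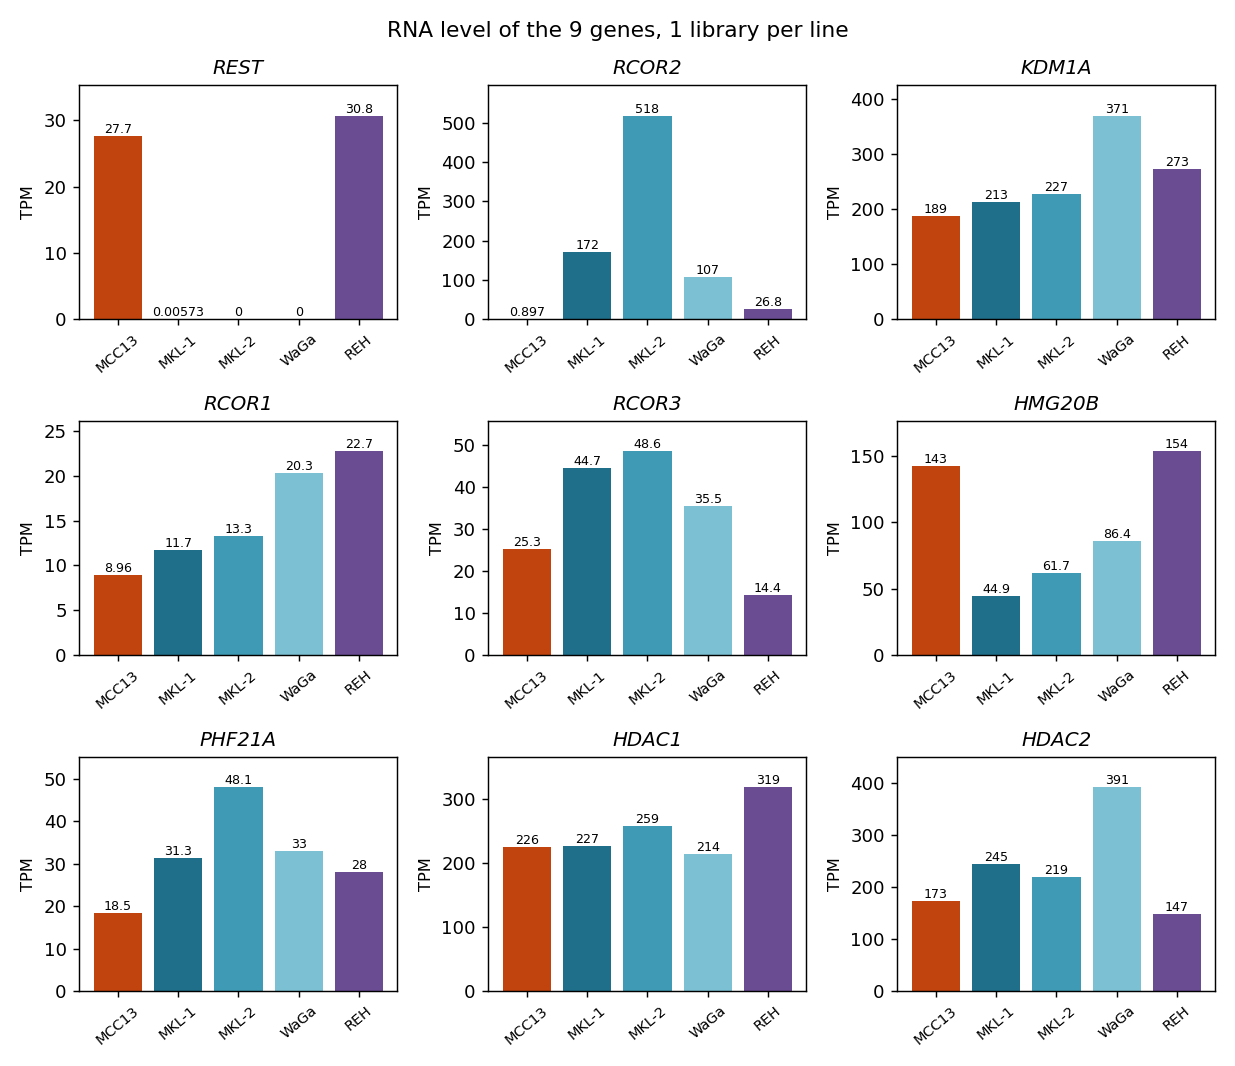
TPM of each of the 9 genes (y axes, linear, each with its own range) in MCC13, MKL-1, MKL-2, WaGa and REH (x axes), 1 library per line, with the value above each bar. REST is at 27.7 TPM in MCC13 and 30.8 in REH and at or near 0 in the other 3 lines, while RCOR2 is at 0.897 TPM in MCC13 and between 107 and 518 in the other MCC lines.

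On the scale of log2(TPM + 1), REST was higher by 4.84 ± 0.21 (SE) in MCC13 than in the other 3 MCC lines, with an adjusted p of 0.00855 (limma, adjusted by Benjamini-Hochberg over 20698 genes). MCC13 was above all 3 of the lines it was set against. REST reached 1 TPM, the level needed to be tested, in MCC13 alone of these lines. The others were at or near 0 with almost no spread. The SE and the p therefore come almost wholly from the variance that limma shares over genes, and the call adds little to the levels. With lines listed at 0 the size depends on the value added before taking logs and is no fold: it was 8.09 with 0.1 added and 11.2 with 0.01. REST was the only one of the 9 genes to pass. Over all genes 8.95% passed in this comparison, 6.47% as higher and 2.47% as lower in MCC13. Of the 9 genes 8 had MCC13 outside the range of the other 3 lines, against 71.1% of all genes tested. The call rests on having all 3 of the lines that MCC13 is set against: leaving out WaGa, MKL-2 or MKL-1 kept the difference at 4.84 but gave an adjusted p between 0.0893 and 0.133, with no gene of the genome passing. The MCC13 side is 1 library, and the differences in marker genes between MCC13 and the other lines move with the result. Their part in it was not tested.

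Between the MCC lines and REH, REST did not pass. The MCC lines lay between 0 and 27.7 TPM against 30.8 in REH, all 4 below REH, and the difference was -3.78 ± 2.24 on the log2(TPM + 1) scale with an adjusted p of 0.486 (a difference of -6.22 with 0.1 added and -8.56 with 0.01). MCC13 decides this value. With MCC13 left out, REH is the only line with REST at 1 TPM or more, so REST is then tested only because REH is high. Without MCC13, REST was lower in the remaining MCC lines by a log2 difference of -4.99 ± 0.22, with an adjusted p of 0.00885, and it was then the only one of the 9 genes that passed, where 13.3% of all genes tested did. With MCC13 none of the 9 passed, where 5.24% of the 22250 genes tested did, 1.09% as higher and 4.15% as lower in the MCC lines. In 6 of the 9 genes REH lay outside the range of the MCC lines, against 52.7% of all genes tested.

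**Figure D2:**
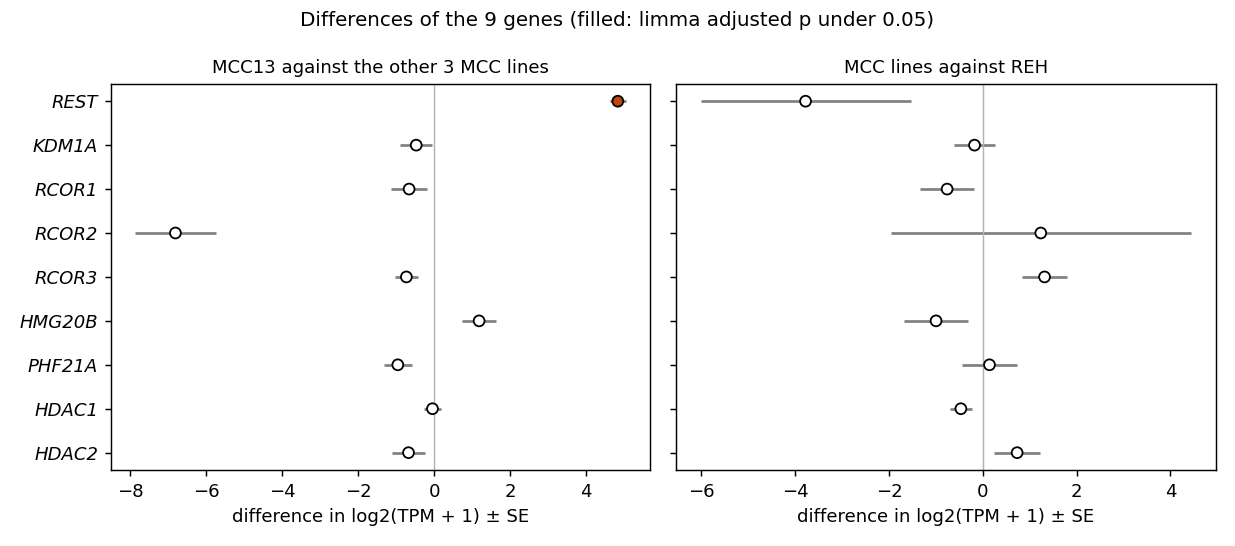
Difference in log2(TPM + 1) of each of the 9 genes (x axis, points with bars of 1 SE from limma), for MCC13 against the other 3 MCC lines (left) and for the MCC lines against REH (right); filled points passed an adjusted p of 0.05. REST in MCC13, at 4.84, is the only filled point, and RCOR2 has the widest bar against REH, at 1.24 ± 3.20.

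The RE1 element itself is shown because it is what REST recognises. Promoter windows from RefSeq (GRCh38.p14, from 250 bases before to 50 bases after each gene's start) were searched on both strands for TTCAGCACC and GGACAGCGC set 2 bases apart, with up to 3 mismatches in the 18 letters. A match was found in 45 of 35116 windows (0.128%), in 4 of the 29 windows of 20 textbook REST target genes (13.8%), and in 0 of the 12 windows of 8 members. The targets were listed because they are known REST targets, so their share is a description and not a test. The rest of the 28 targets had no window. At the share over all windows, 12 windows are too few to expect a match, so the 0 for the members says little. The expression table uses hg19, so the positions below belong to the promoter table alone. In the sites below, capitals mark letters equal to the motif, and lower case marks the 2 spacer bases and the mismatches.
GRIA2: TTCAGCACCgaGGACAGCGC
SYN1: TTCAGCACCgcGGACAGtGC
VGF: TTCAGCACgctGGACAGCGC
CELSR3: TTCAGCACCagGagCAaCGC
The GRIA2 site (a glutamate receptor subunit) is at chr4:157220389-157220408 on the minus strand, with 0 mismatches, and lies at -230 from the gene's start. The site of SYN1, which encodes a synaptic vesicle protein, is at chrX:47620071-47620090 on the minus strand, at -233, with 1 mismatch. VGF, the gene of a secreted neuropeptide precursor, has its site at chr7:101165559-101165578 on the plus strand, at -9, with 1 mismatch. The CELSR3 site (a cadherin of axon guidance) is at chr3:48663015-48663034 on the minus strand, at -148, with 3 mismatches. A match describes letters in a window and not binding, which was not measured here.

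All 4 genes with a matching window had less RNA in MCC13 than in each of the other 3 MCC lines, but none passed the test as set. Over all genes tested, 71.1% had MCC13 outside the range of those lines, on either side. SYN1 had 0.756 TPM in MCC13, 17.2 in WaGa, 19.2 in MKL-2, 10.99 in MKL-1 and 0.037 in REH, and its difference in MCC13 was -3.22 ± 0.50 (log2 scale, adjusted p 0.0569). SYN1 passed in 4 of 7 other settings that kept all lines, with adjusted p between 0.0438 and 0.0486. CELSR3 had 6.94 TPM in MCC13, 75.6 in WaGa, 39.9 in MKL-2, 40.5 in MKL-1 and 3.90 in REH, with a difference of -2.67 ± 0.51 in MCC13 (adjusted p 0.0843). Both genes had MCC13 and REH low and the other 3 lines high. VGF had 2.38 TPM in MCC13, 22.6 in WaGa, 5.29 in MKL-2, 4.30 in MKL-1 and 0.913 in REH (difference in MCC13 -1.45 ± 1.12, adjusted p 0.479). GRIA2 had 0.011 TPM in MCC13, 0.030 in WaGa, 0.340 in MKL-2, 3.37 in MKL-1 and 0 in REH (difference -0.85 ± 1.0, adjusted p 0.632). The gene whose site matched every letter was therefore near 0 in WaGa as well, a line in which REST was listed at 0.

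The list of 28 textbook REST targets, genes of synaptic vesicles, ion channels, secretory granules and the neuronal cytoskeleton, was described as a whole. The summed level was 486 TPM in MCC13, 5224 in WaGa, 2230 in MKL-2, 2546 in MKL-1 and 54.3 in REH. The number of targets at 1 TPM or more was 17 in MCC13, 23 in WaGa, 27 in MKL-2, 25 in MKL-1 and 9 in REH. Both lines with REST RNA thus had fewer targets above 1 TPM than the lines at or near 0 for REST, and of the pair with REST RNA, MCC13 had more of them than REH. In MCC13, 8 of 28 fell and 1 rose, where 2.47% of all genes tested fell and 6.47% rose. The median log2 difference was -2.76 against -0.30 over all genes tested. MCC13 was below all 3 of the other MCC lines in 23 of the 28 and above all 3 in 4. Over all genes tested, 71.1% had MCC13 outside the range of those lines, on either side. SYP and CHGA, which are on this list, are also on the list of Merkel markers, and the summed levels of the Merkel and mesenchymal markers given above move with this difference. Their part in it was not tested. No target passed when WaGa, MKL-2 or MKL-1 was left out.

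Genes of regulated secretion were among those that fell in MCC13. Of the genes named here, SCG3, UNC13A, CHGA and CHRNB2 were under 1 TPM in MCC13. They were tested only because the other MCC lines were high. SCG3, a granule-sorting protein, had 0.384 TPM in MCC13, 131 in WaGa, 232 in MKL-2, 240 in MKL-1 and 0.105 in REH (difference in MCC13 -7.14, adjusted p 0.0113). UNC13A, which primes synaptic vesicles for release, had 0.665 TPM in MCC13, 114 in WaGa, 80.7 in MKL-2, 60.5 in MKL-1 and 17.9 in REH (difference -5.64, adjusted p 0.0155). These patterns differed in REH, which had next to no SCG3 but some UNC13A. CHGA, a granule protein, fell by 9.60 on the log2 scale in MCC13 (adjusted p 0.0491) and CHGB by 5.76 (adjusted p 0.00873). CHGA lost the call with no filter on low values, with quantile normalization and without the variance trend, with adjusted p between 0.0520 and 0.0767. Others that fell were SYP, SNAP25 and SYT1, proteins of synaptic vesicle release, and CHRNB2, a nicotinic receptor subunit, with adjusted p between 0.0132 and 0.0388. Of these, SYT1 lost the call with quantile normalization (adjusted p 0.0576).

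Not all targets followed that order. SCN3A, a sodium channel subunit, had 123 TPM in MCC13, 0.191 in WaGa, 1.53 in MKL-2, 1.70 in MKL-1 and 0.357 in REH, and rose in MCC13 by 5.95 ± 0.69 (adjusted p 0.0314). It lost the call where 0.1 or 0.01 was added before taking logs in place of 1, with adjusted p of 0.0908 and 0.110. MCC13 was thus the highest line for a textbook REST target while it was also the highest MCC line for REST. BDNF, a neurotrophin, had 49.9 TPM in MCC13, 1.26 in WaGa, 13.8 in MKL-2, 25.2 in MKL-1 and 0.010 in REH (difference in MCC13 2.41 ± 1.69, adjusted p 0.442). TUBB3, the neuronal beta-tubulin, had 204 TPM in MCC13, 172 in WaGa, 44.9 in MKL-2, 91.6 in MKL-1 and 0.462 in REH (difference in MCC13 1.19 ± 0.88, adjusted p 0.464). Its symbol has 2 rows in the table, and how reads were split between them is not known. Neither BDNF nor TUBB3 was low in MCC13, and both were low in REH. SCN2A, another sodium channel subunit, was also highest in MCC13, at 2.88 TPM against 0.257 to 2.32 in the other MCC lines. GAD1, at 1.98 TPM in MCC13, lay inside the range of those lines (0.0577 to 3.57).

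**Figure D3:**
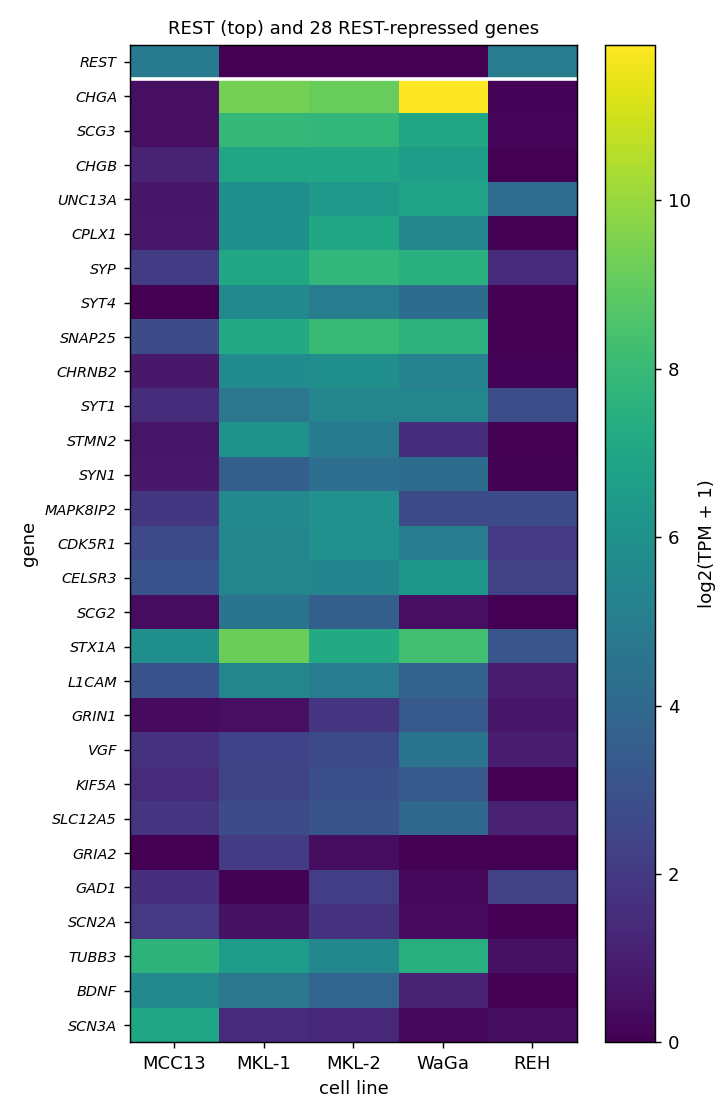
Heat map of log2(TPM + 1) (colour scale) for REST in the top row and 28 textbook REST targets below (rows), in the 5 lines (columns). Most target rows are dark in MCC13 and REH, where REST is at 27.7 and 30.8 TPM, and SCN3A, BDNF and TUBB3 at the bottom are bright in MCC13.

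Against REH, 27 of the 28 targets had a positive difference in the MCC lines. As higher, 1 passed, where 1.09% of all genes tested did. That gene was TUBB3, at 6.24 ± 0.92 on the log2 scale (adjusted p 0.0361), with all 4 MCC lines between 44.9 and 204 TPM against 0.462 in REH. TUBB3 narrowly lost the call without the variance trend (adjusted p 0.0501), and it lost it without MKL-1, MKL-2 or WaGa but not without MCC13 (adjusted p 0.0409). The median difference of the list was 2.99, against 0.18 over all genes tested. REH was below every MCC line in 21 of the 28 and above every one in 1. Over all genes tested, 52.7% had REH outside the range of the MCC lines, on either side. Without MCC13, 12 of the 28 passed as higher and none as lower, where 4.89% of all genes tested passed as higher and 8.42% as lower. The B-lineage markers differ between the same groups: 4 of 8 tested passed as lower in the MCC lines, where 4.15% of all genes tested did. Of these 4, RAG1 lost the call with 0.1 or 0.01 added before taking logs, and CD79A with 0.01. All 4 lost it when WaGa, MKL-2 or MKL-1 was left out, as every gene did.

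Among the CoREST scaffolds, RCOR2 varied most between lines. CoREST proteins bridge LSD1 to the nucleosome and to the deacetylases, and each complex is built on 1 paralog. RCOR2 (ENSG00000167771), a paralog known in mouse for its role in stem and neural progenitor cells, had 0.897 TPM in MCC13, 107 in WaGa, 518 in MKL-2, 172 in MKL-1 and 26.8 in REH. It was the most abundant of the 9 genes in MKL-2 and the least abundant in MCC13. RCOR1 (ENSG00000089902), the paralog first purified with REST, had 8.96 TPM in MCC13, 20.3 in WaGa, 13.3 in MKL-2, 11.7 in MKL-1 and 22.7 in REH. RCOR3 (ENSG00000117625) had 25.3 TPM in MCC13, 35.5 in WaGa, 48.6 in MKL-2, 44.7 in MKL-1 and 14.4 in REH. MCC13 was the lowest MCC line for all 3 paralogs, and REH was above every MCC line for RCOR1 and below every one for RCOR3.

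None of these differences passed. In MCC13, RCOR2 had a difference of -6.82 ± 1.06 on the log2(TPM + 1) scale from the other 3 MCC lines and missed the threshold at an adjusted p of 0.0569. Where the value added before taking logs was 0.1 or 0.01, or where genes with a mean under 5 TPM were left out, RCOR2 passed as lower, with adjusted p of 0.0478, 0.0492 and 0.0344. RCOR3 had a difference of -0.73 ± 0.29 (adjusted p 0.241) and RCOR1 one of -0.66 ± 0.47 (adjusted p 0.446) in the same comparison. Against REH, the MCC lines differed by 1.24 ± 3.20 in RCOR2 (adjusted p 0.856), by 1.32 ± 0.47 in RCOR3 (adjusted p 0.244) and by -0.76 ± 0.57 in RCOR1 (adjusted p 0.571). The spread of RCOR2 among the MCC lines themselves exceeded its difference from REH, and without MCC13 the difference was 2.94 (adjusted p 0.178).

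Within each line, the paralogs made up different shares of the summed RCOR RNA. RCOR2 took 2.55% of the sum in MCC13, 65.8% in WaGa, 89.3% in MKL-2, 75.3% in MKL-1 and 41.9% in REH. RCOR3 took 72.0% in MCC13, 21.8% in WaGa, 8.38% in MKL-2, 19.6% in MKL-1 and 22.5% in REH. RCOR1 took 25.5% in MCC13, 12.4% in WaGa, 2.30% in MKL-2, 5.12% in MKL-1 and 35.5% in REH. The leading paralog was thus RCOR3 in MCC13 and RCOR2 in the other 4 lines. The RCOR2 share was 2.55% in MCC13, against 76.8% ± 11.8 (SD, n = 3) in the other MCC lines, and the RCOR3 share was 72.0% against 16.6% ± 7.18 (SD, n = 3). An exact permutation test gave a 2-sided p of 0.25 for both, the smallest that 1 line against 3 allows. Over the 4 MCC lines the RCOR2 share averaged 58.2% ± 38.4 (SD), against 41.9% in REH (exact permutation p = 0.8). The RCOR3 share averaged 30.4% ± 28.3 (SD) in the MCC lines, against 22.5% in REH (exact permutation p = 1), and the RCOR1 share 11.3% ± 10.4 (SD), against 35.5% in REH (exact permutation p = 0.2, the smallest that 4 lines against 1 allow). Adjusted by Benjamini-Hochberg over the 8 relations tested on shares and on the deacetylase ratio, p lay between 0.5 and 1.

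**Figure D4:**
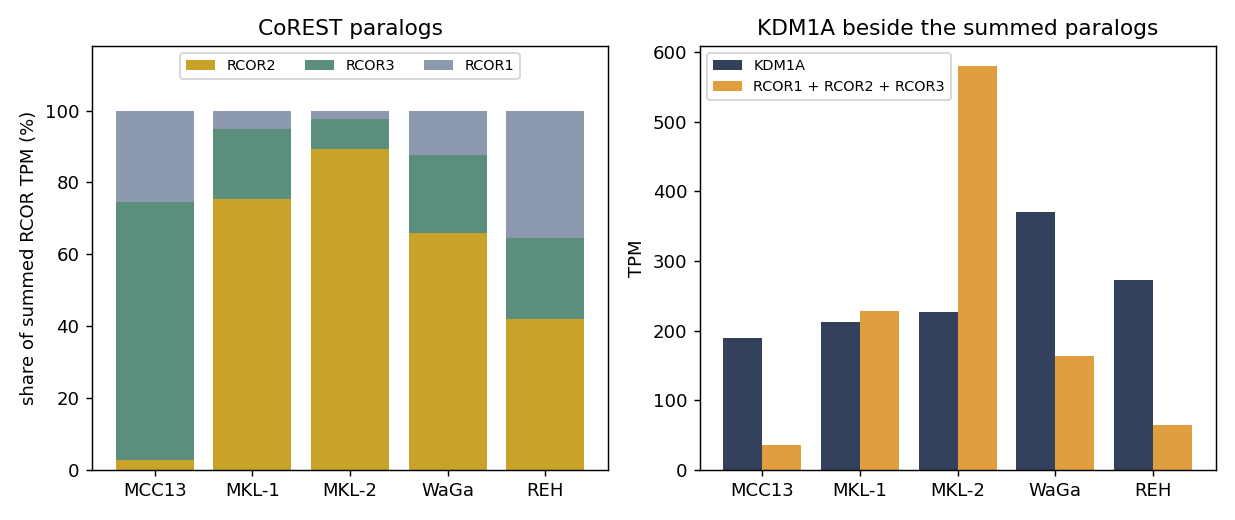
Left, the share (%) of RCOR1, RCOR2 and RCOR3 in their summed TPM (stacked bars) in each of the 5 lines; right, the TPM of KDM1A beside the summed TPM of the 3 paralogs. RCOR2 takes 2.55% of the sum in MCC13 and 89.3% in MKL-2, and the summed paralogs exceed KDM1A in MKL-1 and MKL-2 but not in the other lines.

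The catalytic subunit varied less between lines than any of the scaffolds. KDM1A (ENSG00000004487) had 189 TPM in MCC13, 371 in WaGa, 227.3 in MKL-2, 213 in MKL-1 and 273 in REH, a span of 1.97-fold between the lowest and the highest line, against 2.54-fold for RCOR1, the narrowest of the scaffolds. It exceeded between 94.1% of the genes at 1 TPM or more, in MCC13, and 97.8%, in WaGa. MCC13 and the other 3 MCC lines differed by -0.47 ± 0.43 on the log2 scale (adjusted p 0.536), and the MCC lines and REH by -0.18 ± 0.44 (adjusted p 0.851), with REH inside the range of the MCC lines. WaGa was the highest line, at a difference of 0.82 ± 0.36 from the other MCC lines (p 0.079 before adjustment, adjusted p 0.99983). No gene of the genome passed for WaGa, MKL-1 or MKL-2 against the other 3 MCC lines (0% called in each), where limma gave 467, 296 and 638 genes at an unadjusted p under 0.05. The ratio of KDM1A to the summed RCOR paralogs was 5.37 in MCC13, 2.27 in WaGa, 0.392 in MKL-2, 0.931 in MKL-1 and 4.26 in REH. It was highest in the lines with REST RNA.

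The accessory subunits ordered the lines differently. HMG20B (ENSG00000064961), an HMG-box protein of the complex that binds DNA, had 143 TPM in MCC13, 86.4 in WaGa, 61.7 in MKL-2, 44.9 in MKL-1 and 154 in REH. Apart from REST it was the only one of the 9 genes in which MCC13 was above the other 3 MCC lines, by 1.19 ± 0.45 (adjusted p 0.227). Against REH the MCC lines differed by -0.996 ± 0.68 (adjusted p 0.534), with all 4 below REH. PHF21A (ENSG00000135365, also called BHC80), which binds histone H3 that lacks methylation at lysine 4, had 18.5 TPM in MCC13, 33.0 in WaGa, 48.1 in MKL-2, 31.3 in MKL-1 and 27.98 in REH. MCC13 was the lowest of the 5 lines, at -0.96 ± 0.37 from the other MCC lines (adjusted p 0.230), and the MCC lines spanned the level of REH (0.14 ± 0.58, adjusted p 0.914).

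The deacetylases were among the 4 most abundant of the 9 genes in every line. HDAC1 (ENSG00000116478) had 226 TPM in MCC13, 214 in WaGa, 259 in MKL-2, 226.5 in MKL-1 and 319 in REH, and HDAC2 (ENSG00000196591) had 173 TPM in MCC13, 391 in WaGa, 219 in MKL-2, 245 in MKL-1 and 147 in REH. HDAC1 had the smallest span of the 9 genes, 1.49-fold, and it was the only one of them with MCC13 inside the range of the other MCC lines (difference -0.04 ± 0.21, adjusted p 0.910). REH was above every MCC line for HDAC1 (MCC difference -0.47 ± 0.24, adjusted p 0.417) and below every one for HDAC2 (0.73 ± 0.49, adjusted p 0.533). HDAC2 in MCC13 differed from the other MCC lines by -0.67 ± 0.43 (adjusted p 0.408), and in WaGa by 0.89 ± 0.40 (p 0.083 before adjustment, adjusted p 0.99983). The log2 ratio of HDAC2 to HDAC1 was -0.39 in MCC13, 0.87 in WaGa, -0.24 in MKL-2, 0.11 in MKL-1 and -1.11 in REH. It averaged 0.09 ± 0.56 (SD, n = 4) in the MCC lines, all of them above REH, and an exact permutation test gave p = 0.4 for the size of the difference. The 2 genes together gave between 398 TPM in MCC13 and 606 in WaGa, with REH at 466.

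Within a line, the 9 genes fell into tiers. HDAC1, HDAC2 and KDM1A each exceeded at least 91.7% of the genes at 1 TPM or more in all 5 lines. RCOR1 exceeded between 35.0% of them in MCC13 and 55.0% in REH, and in each MCC line it was below RCOR3. The difference between those paralogs turned in REH, where RCOR3 was the lowest of the 9. Taken over the list, the median log2 difference of the 9 genes was -0.66 in MCC13, against -0.30 over all genes tested, and -0.18 in the MCC lines against REH, where the median over all genes was 0.18. A quantile normalization moved those medians over all genes to -0.15 and 0.07. In bulk RNA of this kind, fewer cells that express a gene and less RNA per cell cannot be told apart.

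DNA-binding proteins that recruit LSD1 through a SNAG domain or otherwise were compared next, since they are the alternatives to REST for bringing the complex to DNA. Of 12 such genes, 8 reached 1 TPM in at least 1 MCC line, and 2 of these fell in MCC13, where 2.47% of all genes tested did. INSM1, a neuroendocrine zinc-finger repressor, was listed at 0 TPM in MCC13 and in REH, and had 572 in WaGa, 573 in MKL-2 and 582 in MKL-1 (difference in MCC13 -9.17 ± 0.17, adjusted p 0.00855). GFI1, a zinc-finger repressor of blood and sensory cells, had 0.634 TPM in MCC13, 248 in WaGa, 144 in MKL-2, 184 in MKL-1 and 11.8 in REH (difference in MCC13 -6.85 ± 0.40, adjusted p 0.00946). The lines at or near 0 for REST thus had the most INSM1 and GFI1 RNA. INSM1 and GFI1 were under 1 TPM in MCC13 and were tested there only because the other MCC lines were high. INSM1 hardly differed among those lines, so its SE comes almost wholly from the variance that limma shares over genes. INSM1 is also a Merkel marker, and the marker levels that set MCC13 apart move with INSM1 and GFI1. The part of the markers in these differences was not tested. Neither gene passed when WaGa, MKL-2 or MKL-1 was left out.

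SNAI2, a SNAG-domain repressor of epithelial genes, had 8.67 TPM in MCC13, 0.741 in WaGa, 0 in MKL-2, 0.038 in MKL-1 and 0 in REH. It was highest in MCC13 and missed the threshold (2.99 ± 0.44, limma adjusted p 0.0519). Of 6 other settings that kept all lines and tested it, SNAI2 passed in 1, quantile normalization (adjusted p 0.0425). SNAI2 reached 1 TPM in MCC13 alone, so it was tested only because MCC13 is high. The pattern was the opposite of INSM1 within the MCC lines. OVOL2, an epithelial SNAG-domain factor, had 0.110 TPM in MCC13, 41.6 in WaGa, 13.2 in MKL-2, 24.5 in MKL-1 and 0.187 in REH, with a difference of -4.49 ± 0.78 in MCC13 (adjusted p 0.0709). With 0.1 or 0.01 added before taking logs, or among genes with a mean of 5 TPM or more, OVOL2 passed as lower (adjusted p 0.0363 to 0.0496). GFI1B, INSM2, PRDM1 and TAL1 stayed under 1 TPM in every line. Between the MCC lines and REH none of the 8 recruiters tested passed. Without MCC13, 2 of 7 passed as higher in the MCC lines, where 4.89% of all genes tested did.

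**Figure D5:**
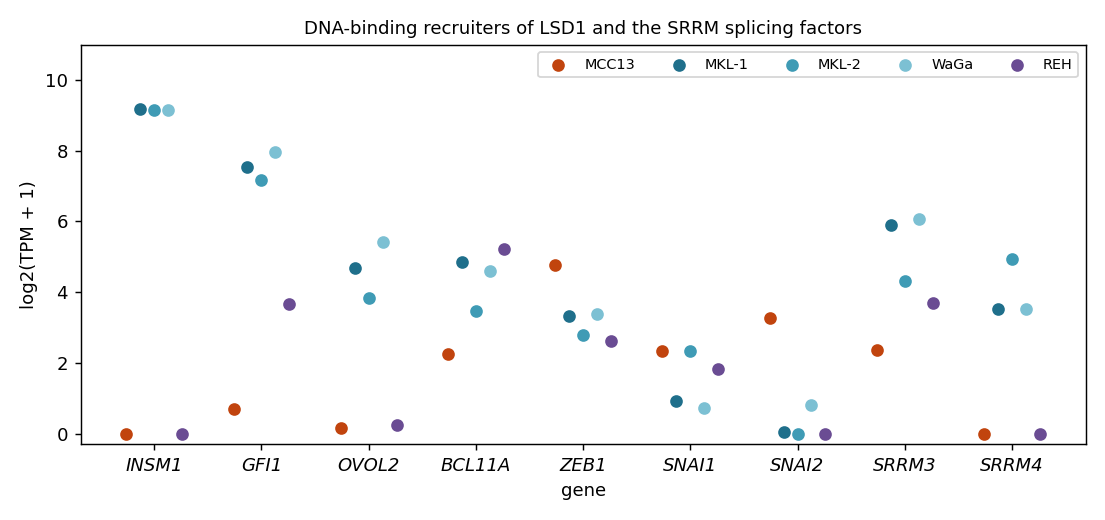
log2(TPM + 1) (y axis) of 7 DNA-binding recruiters of LSD1 and of the splicing factors SRRM3 and SRRM4 (x axis), 1 point per line. INSM1 is at 572 to 582 TPM in WaGa, MKL-2 and MKL-1 and at 0 in MCC13 and REH, and SNAI2 is highest in MCC13, at 8.67 TPM.

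Genes that act on REST itself were examined in a list of 9, and none passed in either comparison. SRRM4, a neural splicing factor that adds an exon to the REST transcript and so lowers the full-length protein, had 0.001 TPM in MCC13, 10.5 in WaGa, 29.7 in MKL-2, 10.6 in MKL-1 and 0.001 in REH. Its difference in MCC13 was -3.999 ± 0.81 (adjusted p 0.0923), and it passed as lower where 0.1 or 0.01 was added before taking logs, with adjusted p of 0.0421 and 0.0274. SRRM3, a related splicing factor, had 4.17 TPM in MCC13, 65.8 in WaGa, 19.1 in MKL-2, 58.2 in MKL-1 and 12.0 in REH (difference in MCC13 -3.05 ± 0.89, adjusted p 0.157). MCC13 was below the other MCC lines for both, and for SRRM4 both lines with REST RNA were near 0. Factors that set the stability of the REST protein differed less: BTRC, which marks REST for degradation, had 16.8 TPM in MCC13, 10.4 in WaGa, 11.1 in MKL-2, 10.4 in MKL-1 and 15.4 in REH, and USP7, which removes ubiquitin from it, had 107 TPM in MCC13, 138 in WaGa, 142 in MKL-2, 121 in MKL-1 and 94.0 in REH.

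Other subunits and partners of the complex were measured in all lines, and none of the 18 passed in MCC13 or against REH. The median log2 difference of the list was -0.40 in MCC13 and -0.40 in the MCC lines against REH, where the medians over all genes were -0.30 and 0.18. ZMYM2, a zinc-finger subunit of LSD1-CoREST complexes, had 18.4 TPM in MCC13, 99.7 in WaGa, 70.8 in MKL-2, 128 in MKL-1 and 61.8 in REH (difference in MCC13 -2.33 ± 0.42, adjusted p 0.0761). CTBP2, a corepressor found with CoREST, had 124 TPM in MCC13, 7.59 in WaGa, 55.6 in MKL-2, 54.2 in MKL-1 and 121 in REH (difference 2.06 ± 1.41, adjusted p 0.435). ZMYM2 was lowest in MCC13, and CTBP2 was lowest in WaGa, so the spread of CTBP2 lay mainly among the lines that MCC13 was set against. GSE1, another protein of the complex, had 43.4 TPM in MCC13, 114 in WaGa, 150 in MKL-2, 86.0 in MKL-1 and 158 in REH (difference in MCC13 -1.37 ± 0.40, adjusted p 0.156). KDM1B (LSD2), the other flavin-dependent demethylase of the same histone residue, had 43.4 TPM in MCC13, 62.3 in WaGa, 48.4 in MKL-2, 34.8 in MKL-1 and 30.0 in REH, and was below KDM1A in every line.

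Enzymes that work on the same histone marks were compared in short lists. Over all genes tested, 8.95% passed in MCC13, 2.47% as lower and 6.47% as higher. A single call in so short a list is therefore no result about the list. Of 9 other histone deacetylases, 1 fell in MCC13 and none rose: HDAC5, a class IIa enzyme, had 24.9 TPM in MCC13, 86.5 in WaGa, 89.9 in MKL-2, 103 in MKL-1 and 211 in REH (difference in MCC13 -1.86 ± 0.22, adjusted p 0.0326). Among 8 methyltransferases and KDM5 demethylases of histone H3 lysine 4, 1 fell in MCC13: KMT2C, an enhancer methyltransferase, had 12.1 TPM in MCC13, 58.7 in WaGa, 50.2 in MKL-2, 46.9 in MKL-1 and 32.6 in REH (difference -2.01 ± 0.26, adjusted p 0.0388, or 0.0578 with quantile normalization). None of the 12 subunits of NuRD, another complex that holds HDAC1 and HDAC2, passed in MCC13, and no gene of these 3 lists passed between the MCC lines and REH. The nearest was HDAC10, between 15.2 and 22.4 TPM in the MCC lines against 87.1 in REH (difference -2.22 ± 0.39, adjusted p 0.0532). HDAC10 passed as lower with no filter on low values, with quantile normalization and without MCC13, with adjusted p of 0.0266, 0.0482 and 0.0432. The marker levels that set MCC13 apart move with HDAC5 and KMT2C, and the part of the markers was not tested. Neither HDAC5 nor KMT2C passed when WaGa, MKL-2 or MKL-1 was left out.

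The genes whose levels followed REST most closely over the 5 lines were found by the root mean square difference between log2(TPM + 1) profiles, each centred on its own mean, among 14750 genes. NLRP2, a cytoplasmic sensor-family protein, was nearest at 0.0875, with 23.7 TPM in MCC13, 0.015 in WaGa, 0.002 in MKL-2, 0 in MKL-1 and 29.6 in REH. APOBEC3G, a cytidine deaminase that restricts retroviruses, followed at 0.0925, with 33.1 TPM in MCC13 and 33.7 in REH. STING1, the adaptor of cytosolic DNA sensing, came after it at 0.115, with 25.2 TPM in MCC13 and 32.5 in REH. All 3 were below 0.2 TPM in WaGa, MKL-2 and MKL-1. For RCOR2 the nearest genes were ASS1 at 0.732, RASGEF1B at 0.744 and SEPTIN3 at 0.757. These distances are larger than those for REST, but REST was at or near 0 in WaGa, MKL-2 and MKL-1. Any gene that is off in those lines is level with REST there, while RCOR2 varied over all 5 lines. The distances for REST and RCOR2 therefore cannot be compared as closeness. With 5 lines such a likeness describes these libraries only.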

How the data were processed

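RNA was enriched with oligo-dT beads and sequenced from directional libraries, per the labels' protocols. Per the submitters' processing notes, bcl2fastq 2.20, STAR 2.4.5b, SAMtools 0.1.19 and StringTie 1.3.5 were used, with the builds hg19 and GRCh37; which gene annotation was used the sources do not state. The authors deposited TPM values for 57905 genes. The total of a TPM column is fixed, so a very abundant gene lowers all others, and no depth or counting interval can be given. Of the table's value columns, 1 matched no sample and was not used.

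From these, differences were fitted on log2(TPM + 1) with limma 3.58.1 (R 4.3.3), with a variance trend, 2-sided, adjusted by Benjamini-Hochberg over all genes that reached 1 TPM in any line compared, at a threshold of 0.05. A fold on this scale understates the change of low genes. The MCC lines (n = 4) were set against REH (n = 1), and each MCC line against the other 3; the lone line is assumed to vary as the others do. Shares and ratios were tested by exact permutation over lines, 2-sided. The 9 genes and 12 lists (132 of 133 genes matched; PECAM1 was not) were chosen with earlier results of these data known. Named genes were the 9 members, up to 4 passing genes of each list with the largest difference (up to 2 where none passed), INSM1, GFI1, SNAI2 and SRRM4, and the 3 nearest profiles to REST and RCOR2. Others named were chosen for their role or after their values were seen. Among them were UNC13A, SYP, SNAP25, SYT1, CHRNB2, BDNF, SCN2A, GAD1, ISL1, NEFM, the 4 genes with RE1 matches, ZEB1, BCL11A, SNAI1, KDM1B, BTRC and USP7. Alternatives were other pseudocounts, filters, scalings, no variance trend, and leaving out each MCC line.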

Additional observations from a re-analysis of the deposited data

Results flagged for a closer look

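Among the 4 MCC lines, 63 genes (the 9 complex genes, named list genes and the nearest profiles to REST and RCOR2) were checked for 1 line lying far from the rest, by a gap to the nearest line that exceeded Dixon's 95% critical value as a part of the whole range. Such a gap was found in 24. Chance flags about 1 in 20 groups, but many of these genes were named for a large difference in MCC13 or for their likeness to REST or RCOR2, so their number is a description and not a test. MCC13 was the low line in 17 and the high line in 6. REST, at 27.7 TPM in MCC13, was the only one of the 9 complex genes with such a gap. MCC13 was also far above the others for VIM at 3125 TPM, PDGFRB at 4.11, NLRP2 at 23.7, APOBEC3G at 33.1 and STING1 at 25.2.

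Of recruiters and histone enzymes, MCC13 was far below the others for INSM1 at 0 TPM, GFI1 at 0.634, HDAC5 at 24.9 and KMT2C at 12.1. Of REST targets it was far below for SCG3 at 0.384 TPM, CHGB at 1.18, SYP at 3.23, SNAP25 at 5.74, UNC13A at 0.665 and CHRNB2 at 0.768. Of cell type markers it was far below for POU4F3 at 0.165 TPM, ATOH1 at 0, ISL1 at 0, NEFM at 0.0322 and EBF1 at 0.0126. Near RCOR2 in profile, ASS1 at 0.0776 TPM and SEPTIN3 at 1.02 were low in MCC13 in the same way. WaGa was flagged for IGLL1, at 0.0601 TPM. The other MCC lines were listed at 0 for it, so any value above 0 in WaGa would have been flagged.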

How the results depend on the processing

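No paired analysis was possible because each line has 1 library, and the groups share 1 replicate number, which follows the order of the samples and pairs none of them. The count of genes that passed between the MCC lines and REH was 1166; it was 3694 with no filter, 288 among genes with a mean of 5 TPM or more, and 0 to 2828 with 1 MCC line left out (0 without MKL-1, MKL-2 or WaGa, with 3194, 3432 and 3288 genes at an unadjusted p under 0.05, and 2828 without MCC13, of which 1149 were among the 1166). For MCC13 it was 1852, against 3312 with no filter, 1167 with the mean of 5 TPM, and 0 without MKL-1, MKL-2 or WaGa (4414, 4978 and 4579 at an unadjusted p under 0.05); for MKL-2 it was 0, against 604 with no filter. The split into higher and lower depended on low genes: for MCC13 it was 1340 higher and 512 lower, 983 and 711 with 0.1 added before logs, 703 and 907 with 0.01, and 543 and 624 with the mean of 5 TPM; against REH it was 243 and 923, and 403 and 482, 611 and 317, and 160 and 128 under the same settings. Of the 9 complex genes, 1 passed in MCC13, 2 with 0.1 or 0.01 added or the mean of 5 TPM, and 0 with 1 line left out; against REH none passed, and 1 without MCC13. The adjusted p of REST in MCC13 was 0.00338 to 0.0128 over the 7 settings that kept all lines. Signs turned for the RCOR3 share against REH (-5.97 percentage points without MCC13), PHF21A against REH (-0.063 without MKL-2) and HDAC1 in MCC13 (0.034 without MKL-2); the cause was not tested. With all lines kept, single genes held direction and call in 549 results, gained the call in 12 and lost it in 20. TPM without counts gives no limit for low values.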
